A study of Homo sapiens with 12 samples.

Results

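The 2 RNA-seq libraries labelled CFPAC-1 control 2 and control 3 differed from the other 4 libraries of that label in which genes they expressed at all. They are described here as a population of their own, 2 of the 6 libraries labelled CFPAC-1 and 2 of 12 in the series. CFPAC-1 and BxPC-3 are established human pancreatic ductal adenocarcinoma lines, and each was sampled in 3 libraries from normal culture (control) and in 3 after 48 h of serum starvation, which makes cells grow primary cilia (labelled cilia, here called induced). The series text gives 7% of CFPAC-1 cells as ciliated in control and 39% in induced cultures, and 5% and 78% for BxPC-3. Control 2 and 3 are thus labelled as fed, unstarved CFPAC-1 cells. The other 4 libraries are control 1, also fed, and induced 1, 2 and 3, starved. No other agent, transgene or selection is named. The labels do not say whether libraries came from separate cultures.

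The split was chosen from the measured values of all genes in these 6 libraries, so every difference between its sides is given as a description, with no test. Levels are FPKM, sequenced fragments scaled to transcript length and to the library's mapped total. A log2 difference is the mean log2(FPKM + 1) of control 2 and 3 minus that of the other 4 libraries, and it understates the difference of weakly expressed genes. Of 60564 genes in the table, 12636 reached 1 FPKM in at least 2 of the 6 libraries, 10956 of them protein coding. A gene was called on-off where every library of one side had at least 10 FPKM and every library of the other at most 0.2 FPKM. Reads per gene are not in the table, which leaves the depth unknown, and genes listed at 0 may still be transcribed at levels too low to be seen. Summed FPKM was 258299 to 315377 per library over all 12. The share of mitochondrially encoded genes was 19.9% in control 2 and in control 3 and 11.6% to 34.0% over all libraries, with 34.0% in control 1.

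Lineage transcription factors and the HOX genes, which hold the memory of body position, tend to keep their state in culture. Genes of the germ line, such as the MAGE family, are silenced by promoter methylation in most body tissues and come on in some tumours. Gains and losses of chromosome segments, which pancreatic cancers carry in numbers, shift the levels of neighbouring genes together. None of copy number, methylation or genotype was measured in this series. A fed and a starved culture of one line, by contrast, differ in genes of growth, metabolism and the cell cycle.

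Counted pair by pair, the libraries separated into 3 sets with few on-off genes within a set and many between sets. Control 2 and control 3 differed by 4 on-off genes. Among the other 4 libraries the 6 pairs differed by 0 to 5 on-off genes, and control 1 differed from the 3 induced libraries by 3 to 5. Between control 2 or 3 and any of those 4 there were 119 to 152, and control 1, which carries the same label as control 2 and 3, was the farthest with 148 and 152. The 15 pairs within BxPC-3 differed by 2 to 7 genes, fed against starved pairs included. Between BxPC-3 and control 2 or 3 the count was 174 to 209, and between BxPC-3 and the other 4 it was 129 to 165. Pairs across the split thus lay above every pair within BxPC-3, and their range overlapped that of pairs of different lines. These counts share libraries and are not independent.

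**Figure D1:**
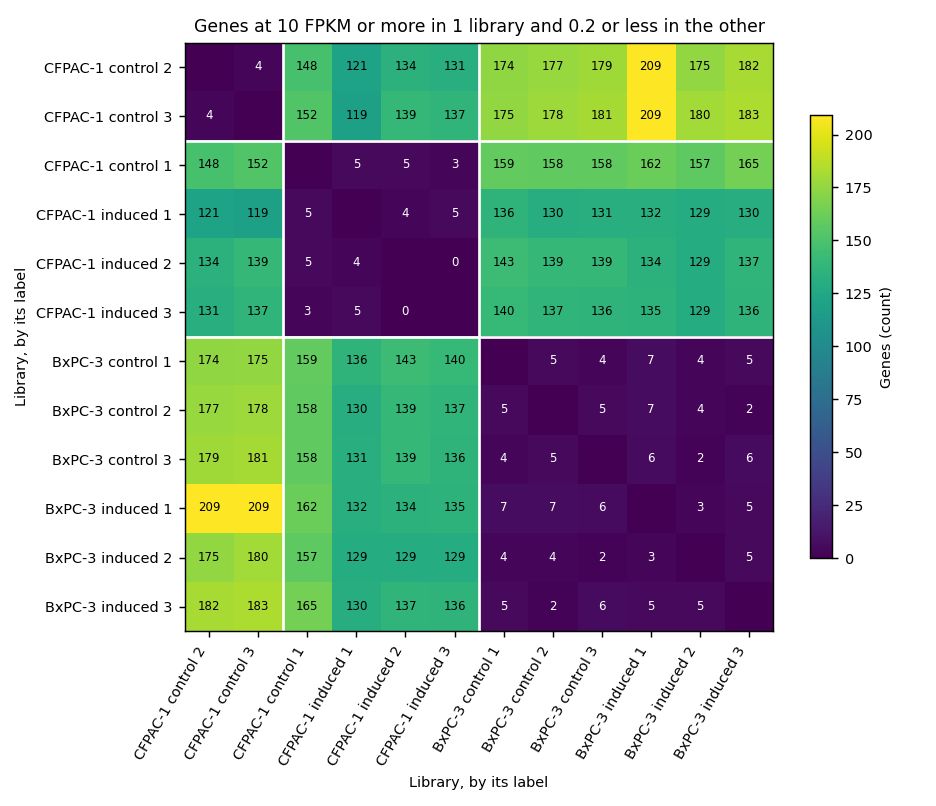
Heat map of the number of on-off genes between every pair of the 12 libraries (rows and columns, 1 library each; a gene counts when it is at 10 FPKM or more in one library and at 0.2 FPKM or less in the other). Light blocks mark many such genes and dark blocks few. CFPAC-1 control 2 and 3 form a dark block of their own. They have 119 to 152 genes against the other 4 libraries labelled CFPAC-1 and 174 to 209 against BxPC-3.

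Across the genes that passed the filter, log2(FPKM + 1) of control 2 and control 3 correlated at r = 0.989 with each other and at 0.755 to 0.780 with the other 4 libraries, and the latter correlated at 0.917 to 0.988 among themselves. With the 6 BxPC-3 libraries control 2 and 3 correlated at 0.785 to 0.815, above each of their values with the other 4, while by on-off genes they lay farther from BxPC-3. Libraries 2 and 3 were as close in each other group, at 0.988 for induced, 0.989 for BxPC-3 control and 0.989 for BxPC-3 induced. Library 1 correlated less with libraries 2 and 3 of its group throughout. Its values were 0.934 and 0.943 in induced, 0.959 and 0.954 in BxPC-3 control and 0.956 and 0.960 in BxPC-3 induced. For control 1 both were 0.780. Genes are not independent replicates, and no p is given. By a 2-fold step, 113 (1.03%) of the protein-coding genes lay apart between control 2 and control 3. Between control 1 and control 2 it was 2994 (27.3%), and between control 1 and control 3 it was 2988 (27.3%). BxPC-3 control 1 and control 2 lay apart at 567 genes (5.18%). Of all 12636 genes, 4239 (33.5%) were higher in both control 2 and 3 than in each of the other 4, and 3159 (25.0%) were lower. With a log2 difference of at least 2, a 4-fold step, 422 genes (3.34%) were higher and 444 (3.51%) lower. With a 2-fold step 1770 (14.0%) were higher and 1401 (11.1%) lower, and the median difference of all genes was 0.11. Divided by the median of ratios between libraries, the values gave 1489 higher and 1590 lower, so which direction had more genes depended on the scaling. In what follows, higher and lower mean a 2-fold step with no overlap between the sides, and the shares of 14.0% and 11.1% are the background for each list of genes. Counts within a list are over the members that passed the filter, through either side, and are descriptions.

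In all, 39 genes (0.309%) were on in control 2 and 3 and off in the other 4, all protein coding, and 40 (0.317%) were off in control 2 and 3 and on in the other 4, of which 37 were protein coding. The highest of the first group was LDHB, the heart-type subunit of lactate dehydrogenase (ENSG00000111716, chromosome 12, 21635342 to 21757857). Its level was 177 FPKM in control 2 and 186 in control 3, it was listed at 0 in all of the other 4, and in BxPC-3 it ran from 138 to 232 FPKM. PPP1R14A, an inhibitor of myosin phosphatase, stood at 172 and 164 FPKM against at most 0.132. BASP1, a membrane-bound signalling protein, stood at 154 and 167 FPKM against at most 0.0231, and in BxPC-3 at 38.5 to 60.6. CCL2, the chemokine that draws monocytes, stood at 45.8 and 48.0 FPKM in controls 2 and 3, at most at 0.0461 in the other 4 and at most at 0.109 in BxPC-3. That the sides do not overlap in these genes follows from the rule.

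Several of the 39 are developmental regulators. FOXA2, a pioneer factor of endoderm, stood at 17.5 and 18.5 FPKM and was listed at 0 in the other 4, with 9.25 to 12.8 FPKM in BxPC-3. BARX1, a homeobox factor of stomach mesenchyme, stood at 28.7 and 30.2 FPKM against at most 0.0558, and was listed at 0 in all 6 BxPC-3 libraries. TBX1, a T-box factor of the pharynx, stood at 11.2 and 11.1 FPKM. FOXC2, a mesenchymal forkhead factor, stood at 17.6 and 17.9 FPKM, and HOXC13, the most posterior HOXC gene, at 17.0 and 16.4. Other genes of this group are DLL3, a Notch ligand (22.5 and 22.2 FPKM), INHBB, a subunit of activin B (14.9 and 15.8 FPKM), L1CAM, a neural adhesion molecule (21.3 and 20.4 FPKM), MCAM, an adhesion molecule of vessel walls (11.9 and 15.4 FPKM), MMP2, a gelatinase (19.3 and 18.6 FPKM), and KIF1A, a neuronal transport motor (19.6 and 19.8 FPKM). Of the 39 genes, 7 were on in all BxPC-3 libraries, 16 were off in all and 16 lay between. In the other 4 libraries 7 of the 39 were listed at 0 throughout. TMEM189-UBE2V1 (26.9 and 34.1 FPKM), a readthrough of 2 neighbouring genes, may share reads with both and is uncertain.

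The 40 genes of the opposite pattern included secreted and surface proteins of epithelia. SLPI, a secreted protease inhibitor of mucosae, was listed at 0 in control 2 and 3 and had 168, 103, 282 and 263 FPKM in control 1 and induced 1, 2 and 3, with 202 to 490 in BxPC-3. SERPINB5, or maspin, was listed at 0 in both and stood at 106, 39.8, 76.6 and 90.1 FPKM in the other 4. LCN2, an iron-binding protein of inflamed epithelium, was listed at 0 in both and stood at 18.1, 92.9, 54.1 and 58.6 FPKM. CA9, a carbonic anhydrase induced by low oxygen, was listed at 0 in both and stood at 84.2, 189, 293 and 263 FPKM. Control 1 had the lowest of the 4 values for LCN2 and CA9 and the highest for SERPINB5.

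Proteins of the intestinal brush border and its adhesion made up another part of these genes. CDH17, the liver-intestine cadherin, stood at 0.0196 and 0.0140 FPKM in controls 2 and 3 and at 128, 50.1, 131 and 165 in the other 4, and at most at 0.220 in BxPC-3. MUC13, a membrane mucin of the gut, was listed at 0 in both and stood at 46.1, 20.3, 62.0 and 73.0 FPKM. CDHR2, a brush border protocadherin, stood at 0.0720 and 0.0434 FPKM against 16.8 to 19.7, and its partner USH1C at 0 and 0.0329 FPKM against 15.1 to 25.3. DPP4, a brush border peptidase, was listed at 0 in both and stood at 21.4, 10.5, 22.9 and 25.7 FPKM. TM4SF4, a tetraspanin-like protein of gut and liver, was listed at 0 in both and stood at 12.7 to 80.9 FPKM. COL17A1, the hemidesmosome collagen, stood at 0.00679 and 0.0315 FPKM against 50.1 to 69.2, and at 84.2 to 303 in BxPC-3. LUM, a small proteoglycan of connective tissue, stood at 0.0532 and 0 FPKM against 25.5 to 108. Of the 40 genes, 14 were on in all BxPC-3 libraries, 8 off in all and 18 between, and 12 were listed at 0 in both control 2 and 3.

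The same group held several metabolic enzymes and a cell cycle inhibitor. AKR1C1, AKR1C2 and AKR1C3, neighbouring aldo-keto reductase genes on chromosome 10, stood at or near 0 in control 2 and 3, with at most 0.0168 FPKM. In the other 4 they stood at 58.7 to 183, 54.3 to 229 and 83.7 to 160 FPKM, in each case lowest in control 1. ALDH3A1, an aldehyde dehydrogenase, stood at 0.0975 and 0.0262 FPKM against 52.9 to 101. AKR1C1 and AKR1C2 are near-identical copies and may share reads. CDKN2A, which encodes the cell cycle inhibitors p16 and ARF, was listed at 0 in both control 2 and 3 and stood at 49.1, 25.2, 58.2 and 52.1 FPKM in the other 4. It was at most at 0.1003 FPKM in BxPC-3, a line described to lack this gene.

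**Figure D2:**
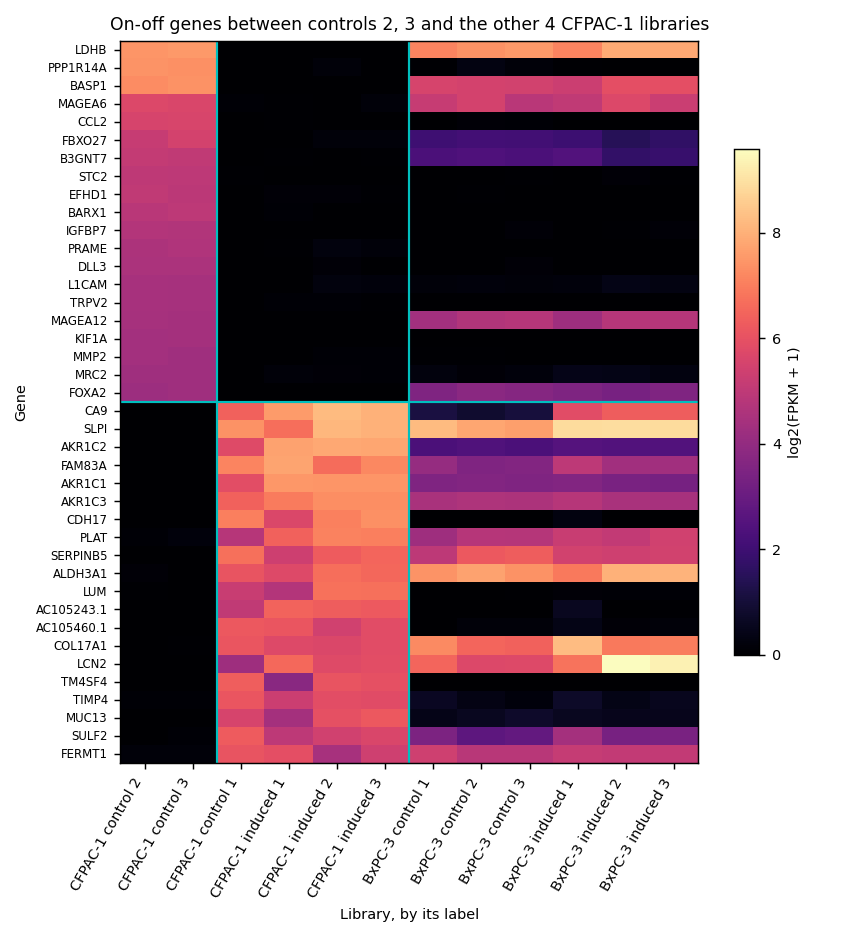
Heat map of log2(FPKM + 1) for the 20 on-off genes of highest level in each direction (rows) in the 12 libraries (columns). Genes with no symbol or with a hyphen in it, such as TMEM189-UBE2V1, were left out. The upper genes are on in CFPAC-1 control 2 and 3 and at or near 0 in the other 4 libraries of that label, the lower genes the reverse, and BxPC-3 follows neither side throughout.

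The stretch before the start of 4 of these genes is shown because LDHB, CDKN2A and the MAGE genes are known for silencing by methylation of CpG dinucleotides near their starts. For CDKN2A the stretch shown is that of ARF and not that of p16. The sequences are RefSeq's, on build GRCh38.p14, each the 250 bases before a start that RefSeq gives, 5′ to 3′ on the gene's strand. Every CpG is in capitals. Where several starts were given, the one nearest the GENCODE start of the gene was taken. The LDHB stretch lies inside the wider GENCODE extent given above for that gene, and the AKR1C1 stretch overlaps the GENCODE start of its gene. LDHB lies on the minus strand (chr12:21657843-21658092, 9 CpG), CDKN2A on the minus strand (chr9:21995325-21995574, 24 CpG, the start of the ARF transcript), MAGEA3 on the plus strand (chrX:152698544-152698793, 15 CpG) and AKR1C1 on the plus strand (chr10:4963165-4963414, 2 CpG).
LDHB: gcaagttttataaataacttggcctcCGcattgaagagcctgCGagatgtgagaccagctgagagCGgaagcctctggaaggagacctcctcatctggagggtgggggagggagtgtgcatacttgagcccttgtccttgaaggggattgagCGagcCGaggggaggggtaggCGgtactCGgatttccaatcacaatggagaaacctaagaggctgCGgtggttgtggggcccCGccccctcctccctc
CDKN2A: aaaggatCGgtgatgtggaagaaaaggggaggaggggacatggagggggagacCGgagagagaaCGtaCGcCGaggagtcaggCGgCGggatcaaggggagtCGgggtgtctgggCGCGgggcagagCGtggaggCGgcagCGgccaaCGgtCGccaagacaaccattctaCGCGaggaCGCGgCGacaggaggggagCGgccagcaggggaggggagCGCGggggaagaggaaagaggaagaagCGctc
MAGEA3: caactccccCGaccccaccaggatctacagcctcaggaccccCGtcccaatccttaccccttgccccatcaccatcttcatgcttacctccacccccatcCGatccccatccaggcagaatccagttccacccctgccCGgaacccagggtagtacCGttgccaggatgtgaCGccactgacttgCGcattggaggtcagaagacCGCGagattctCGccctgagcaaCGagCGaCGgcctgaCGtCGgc
AKR1C1: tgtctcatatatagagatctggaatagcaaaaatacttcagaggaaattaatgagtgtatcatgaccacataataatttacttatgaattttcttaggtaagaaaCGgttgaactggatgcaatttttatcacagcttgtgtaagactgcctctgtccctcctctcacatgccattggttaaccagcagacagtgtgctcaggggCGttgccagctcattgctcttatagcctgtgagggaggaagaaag
The CDKN2A stretch is dense in CpG and that of AKR1C1 nearly free of them, so genes off in control 2 and 3 had starts of both kinds. The window of MAGEA6 (chrX:152769690-152769939, minus strand) carries the same letters as that of MAGEA3, with 300 of 300 bases alike when the 50 after the start are included. Bases before a start do not show how far reads of MAGEA3 and MAGEA6 can be told apart. Windows were matched for 25 of 39 (64.1%) and 27 of 37 (73.0%) protein-coding on-off genes, and 8544 of 10956 (78.0%) overall. That is under the 80% needed, so a comparison of CpG content between the lists is void.

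Genes of large difference that were not on-off and were higher in control 2 and 3 included targets of TGF-beta and of the YAP coactivator. These targets are named by function and not by rank. CTGF, a matrix-linked growth factor, stood at 243 and 241 FPKM in controls 2 and 3 and at 2.77, 3.73, 17.6 and 17.5 in control 1 and induced 1, 2 and 3 (log2 difference 4.78). CYR61, its relative, stood at 473 and 481 FPKM against 11.7, 14.4, 56.0 and 54 (4.10). ID3, a target of BMP signals, stood at 74.1 and 73.5 FPKM against 2.05 to 10.5. Of 20 genes of the TGF-beta list 18 passed the filter, 5 were higher, 5 lower (SMAD6, TGFB1, LTBP3, TIMP1 and BAMBI) and 8 neither (median 0.33). CD70, a ligand of the TNF family, stood at 52.6 and 54 FPKM (5.26) and COL5A2, a fibrillar collagen, at 50.7 and 37.2 (5.01).

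Among the genes of largest difference in the other direction, beside the on-off genes SLPI, CA9, AKR1C1 and AKR1C2, were the following. IGFBP1, a binding protein of insulin-like growth factors, stood at 0.239 and 0.288 FPKM in controls 2 and 3 and at 67.6, 321, 835 and 915 in the other 4 (log2 difference -8.16). IGFBP6, of the same family, stood at 1.54 and 1.65 FPKM against 324, 448, 512 and 441 (-7.36), and IGFBP3 at 2.43 and 2.31 against 30.8, 243, 267 and 276 (-5.52). In IGFBP1 and IGFBP3 the fed control 1 was the lowest of the 4, though far above control 2 and 3, while IGFBP6 was within 324 to 512 FPKM over all 4. LAMB3, a chain of a basement membrane laminin, stood at 0.559 and 0.508 FPKM against 84.0, 451, 242 and 189 (-7.06). Its receptor chain ITGB4 stood at 5.00 and 4.84 FPKM against 192 to 211 (-5.12). MSLN, the surface protein mesothelin, stood at 0.633 and 0.661 FPKM against 83.3, 150, 183 and 157 (-6.40), and UPK3B, a uroplakin, at 1.25 and 0.779 against 67.1 to 268 (-6.48). KRT19, the keratin of duct cells, stood at 7.42 and 7.67 FPKM against 532, 254, 627 and 556 (-5.77), and at 537 to 1088 in BxPC-3.

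Of 37 transcription factors of gut and pancreas, 17 passed the filter, 5 were higher, 8 lower and 4 neither (median -0.78). Higher in control 2 and 3, beside FOXA2, were ONECUT3, a cut-homeobox factor (4.45 and 4.72 FPKM against at most 0.0145), GATA5 (2.96 and 3.25 FPKM), GATA4 (3.52 and 3.47 FPKM) and SOX9, a factor of duct and progenitor cells, at 55.1 and 53.0 FPKM against 17.9, 18.9, 13.2 and 14.5. Lower was HNF4A, a regulator of the gut and liver programme, at 0.00440 and 0 FPKM against 1.5 to 4.25. GATA6, a factor of classical pancreatic cancer, stood at 0.653 and 0.483 FPKM against 6.30 to 7.51, with 9.54 to 14.2 in BxPC-3. KLF5, an epithelial zinc finger factor, stood at 1.49 and 1.81 FPKM against 45.4 to 58.6 (log2 difference -4.26), with 51.7 to 83.4 in BxPC-3. EHF and ELF3, epithelial ETS factors, stood at 0.0314 and 0 against 2.72 to 12.2 FPKM and at 2.91 and 2.87 against 7.68 to 15.9. The 2 sides thus had unlike sets of GATA factors, and for GATA6 and KLF5 it was control 2 and 3 that lay apart from BxPC-3.

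The HOX clusters are given one by one. In HOXC, 10 of 11 genes passed, 6 were higher in control 2 and 3 and 0 lower (median 1.77). HOXC9 stood at 19.5 and 18.7 FPKM against 2.86, 1.97, 2.89 and 2.19, and HOXC10 at 51.1 and 50.7 against 18.2, 16.0, 10.5 and 12.1. In HOXB, 11 of 12 passed, 4 were higher (3 by the median of ratios), 7 not apart and 0 lower, with HOXB9 at 9.86 and 9.80 FPKM against 1.29 to 4.75. In HOXA, 5 of 15 passed and 4 were lower. HOXA10 was listed at 0 in both and stood at 6.66, 2.35, 2.58 and 4.69 FPKM in the other 4, HOXA11 stood at 0.463 and 0.314 against 5.03 to 10.3, and HOXA13 at 0.00940 and 0.0424 against 1.49 to 3.95. The exception in HOXA was the noncoding HOTAIRM1 at the cluster's anterior end, at 2.17 and 2.73 FPKM against at most 0.133. No HOXD gene passed the filter. Most HOXC genes that passed were thus higher in control 2 and 3, most HOXB genes were not apart, and the posterior HOXA genes that passed were lower.

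**Figure D3:**
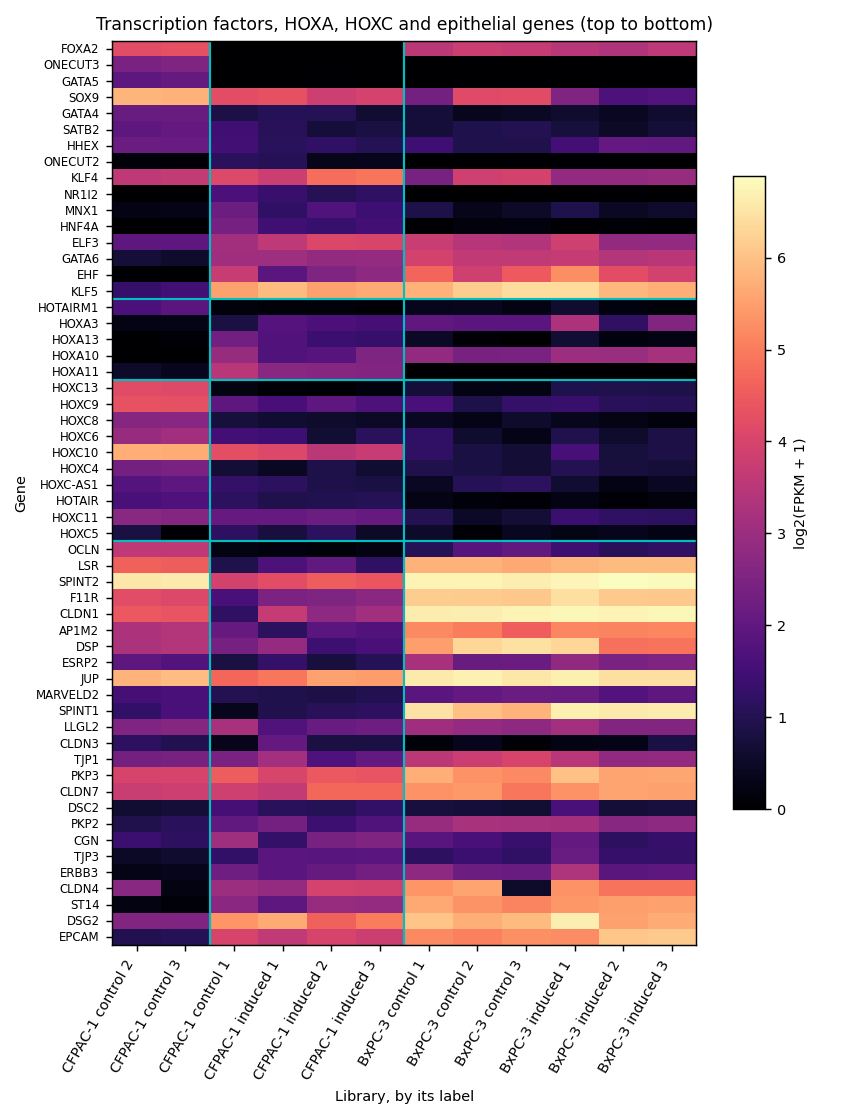
Heat map of log2(FPKM + 1) for lineage transcription factors, HOXA and HOXC genes and epithelial genes (rows, from top to bottom, reported members that passed the filter) in the 12 libraries (columns). CFPAC-1 control 2 and 3 are alike in most rows (CLDN4 is an exception) and differ from the other 4 libraries of that label in GATA and HOX genes, and EPCAM is higher in BxPC-3 than on either side.

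CDH1, RAB25 and KRT7 were far below BxPC-3 on both sides of the split. CDH1, or E-cadherin, stood at 0.192 and 0.180 FPKM in controls 2 and 3, at 0.489, 0.743, 0.423 and 0.892 in the other 4 and at 38.2 to 61.0 in BxPC-3. RAB25, an epithelial trafficking protein, was listed at 0 in all 6 libraries against 27.7 to 35.0 FPKM in BxPC-3. KRT7, a duct keratin, stood at 0.340 to 2.01 FPKM over the 6 libraries against 395 to 586. CFTR, the chloride channel of duct cells that is mutated in cystic fibrosis, the disease of the patient from whom CFPAC-1 was derived, was listed at 0 in all 6 libraries and was at most at 0.0181 FPKM in BxPC-3. VIM, the mesenchymal intermediate filament vimentin, stood at 700 and 596 FPKM in controls 2 and 3, at 569, 975, 961 and 970 in the other 4 and at 4.41 to 11.5 in BxPC-3. All 6 libraries thus had high vimentin and little or no E-cadherin beside BxPC-3, and the duct markers KRT7 and CFTR were low or listed at 0 on both sides. CFPAC-1 is described as an epithelial line, so for CDH1, RAB25 and CFTR the levels went against the label on both sides, and the identity of either side was not tested. Other epithelial genes were present: OCLN in control 2 and 3 (11.0 and 11.1 FPKM) was above BxPC-3 (1.05 to 3.11), SPINT2 there (92.2 and 95.7) was just below it (101 to 117), and KRT19 in the other 4 (254 to 627) overlapped it (537 to 1088).

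The sides held different epithelial genes. Of 35 junction and epithelial identity genes 25 passed the filter, 7 were higher, 6 lower and 12 neither (median 0.05, and -0.01 under the median-of-ratios scaling). Their summed FPKM was 297 to 301 in control 2 and 3, 189 to 220 in the other 4 and 1657 to 2039 in BxPC-3. OCLN, or occludin, was on-off, with at most 0.182 FPKM in the other 4. SPINT2, an inhibitor of epithelial proteases, was higher (14.5 to 21.9 FPKM in the other 4), as were LSR, a tricellular junction protein (23.3 and 21.9 FPKM against 0.902 to 3.05), and CLDN1, or claudin-1 (20.7 and 19.6 FPKM against 1.29 to 12.0). Lower was EPCAM, an epithelial adhesion molecule, at 0.963 and 1.04 FPKM against 14.8, 11.2, 14.8 and 13, and with it DSG2, ST14, ERBB3, TJP3 and CLDN4. Junction genes were therefore split between the sides, with no common direction.

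Mesenchymal genes were split as well, with 9 higher, 7 lower and 9 neither among 25 of 30 that passed (median -0.21). CDH2, or N-cadherin, stood at 4.13 and 3.84 FPKM and was listed at 0 in the other 4. SNAI1, a repressor of E-cadherin, was higher (6.94 and 7.34 FPKM against 1.27 to 2.64), and its relative SNAI2 was lower (0.737 and 0.741 FPKM against 17.1, 15.3, 18.1 and 18.3). S100A4, a calcium-binding protein of motile cells, stood at 115 and 112 FPKM against 823 to 1687. TUBA1A, a tubulin, stood at 140 and 151 FPKM and was higher. ZEB1, another E-cadherin repressor, stood at 0.372 and 1.15 FPKM against 1.2 to 3.04 and was not 2-fold apart.

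KRT8 and KRT18, the keratin pair of simple epithelia, were neither higher nor lower by the rule used here, while several keratins of stratified epithelium were lower. The sides overlapped in KRT8. In KRT18 they did not, but the difference was under 2-fold. KRT8 stood at 270 and 316 FPKM against 274, 50.7, 148 and 185, and KRT18 at 318 and 311 against 254, 125, 244 and 216. KRT5, a basal keratin, was listed at 0 in both control 2 and 3 and stood at 86.0, 1.89, 43.7 and 38.7 FPKM in the other 4. Of 11 keratins that passed, 5 were lower (KRT5, KRT14, KRT15, KRT16 and KRT19), 2 higher (KRT80, at 26.2 and 25.7 FPKM against 1.73 to 3.98, and KRT81) and 4 neither. In the basal-like pancreatic cancer list 11 of 25 passed, 7 were lower and 0 higher (median -2.12), with FGFBP1, a carrier of fibroblast growth factors, at 0.317 and 0.161 FPKM against 6.30 to 33.0.

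Markers of differentiated duct and of classical pancreatic cancer were in the main lower too. Of 24 duct markers 13 passed, 7 were lower, 1 higher and 5 neither (median -1.24). S100P, a calcium-binding protein of pancreatic cancer, stood at 2.16 and 3.01 FPKM against 24.9, 70.7, 83.4 and 82.0, and CEACAM1, an adhesion molecule, at 0.142 and 0.153 against 4.62 to 5.88. The classical list has 26 genes, of which 24 were matched, 10 passed, 6 were lower, 1 higher and 3 neither (median -2.63). MYO1A, a brush border myosin, was listed at 0 in both and stood at 35.1, 5.89, 18.0 and 18.9 FPKM, and LGALS4, a gut galectin, stood at 0.207 and 0.261 against 14.0, 4.05, 18.0 and 18.7. The higher gene was AGR2, a disulfide isomerase of mucus cells, at 115 and 114 FPKM against 0.832, 4.84, 16.2 and 16.6. MUC1, MUC13 and TFF2 were the 3 lower genes among 5 of 19 mucin and trefoil genes that passed. With basal-like and classical lists both lower, control 2 and 3 were not placed on either side of that pancreatic cancer scheme by these counts.

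Markers of other cells that a culture could hold differed gene by gene. Of 20 fibroblast markers 9 passed, 6 were higher, 2 lower and 1 neither. COL1A1, of type I collagen, stood at 4.27 and 4.28 FPKM against at most 0.140, COL5A1 at 7.02 and 7.32 against at most 0.0358, and MXRA8, a matrix receptor, at 31.4 and 42.9 against 0.648 to 1.81. COL6A1 went the other way, at 1.81 and 1.93 FPKM against 38.2, 32.6, 43.6 and 41.7, and so did LUM. The summed level of that list was 63.5 to 74.7 FPKM in control 2 and 3 and 62.1 to 160 in the other 4. In bulk RNA, fewer cells of a type and less RNA per cell cannot be told apart.

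Immune, endothelial and acinar markers were few and low. Of 20 immune markers 4 passed, with CD14, a coreceptor of myeloid cells, higher (4.22 and 3.97 FPKM against 0.318 to 0.393) and the lysosomal CD68 lower (6.94 and 6.64 FPKM against 12.8 to 47.8). The summed immune level was 12.4 to 13.2 FPKM against 16.6 to 50.4, and 9 of the 20 were listed at 0 in both control 2 and 3. Of 14 endothelial markers 3 passed (1 higher, 1 lower, 1 neither), with sums of 20.7 to 21.3 against 17.0 to 33.4 FPKM. Of 14 acinar markers 1 passed, the secretory factor BHLHA15, at 0.211 and 0.0683 FPKM against 4.62 to 9.72. Of 20 hepatocyte markers 2 passed and 0 were apart. Their part in the differences above was not tested.

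Of 26 endocrine and neural markers 7 passed, 5 were higher and 2 lower (median 1.5), and 15 were listed at 0 in both control 2 and 3. SYP, or synaptophysin, stood at 2.33 and 2.53 FPKM against 0.0882 to 0.310, CHGB, a granin of secretory granules, at 1.5 and 1.45 against 0.0434 to 0.117, and TUBB3, a neuronal tubulin, at 41.9 and 19.1 against 4.93 to 13, itself over 2-fold apart between control 2 and 3. ENO2, the neuronal enolase, and ISL1, an endocrine homeobox factor, were lower. PAX2, a kidney and neural factor, stood at 4.48 and 4.91 FPKM against at most 0.113, and its relative PAX8, with the kidney cadherin CDH16, was lower: PAX8 stood at 0.0129 and 0 FPKM against 1.08 to 2.77.

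Several enzymes and receptors differed in level. LDHB was present in control 2 and 3 and listed at 0 in the other 4, while the muscle-type subunit LDHA was on both sides and stood at 125 and 123 FPKM against 217, 282, 360 and 347. Of the aldose reductase pair, AKR1B1 was higher (17.6 and 17.2 FPKM against 0.400 to 2.15) and AKR1B10 lower (0 and 0.0300 FPKM against 8.92 to 33.7). Of 27 isozyme and detoxification genes 21 passed, 5 were higher, 10 lower and 6 neither. CYP1B1, an oxidase of steroids and carcinogens, stood at 66.6 and 65.2 FPKM against 2.60 to 7.09, and NQO1, a quinone reductase controlled by NRF2, at 51.5 and 50.9 against 252 to 341. Among 23 of 32 growth factor receptors and ligands that passed, 4 were higher and 9 lower. MET, the hepatocyte growth factor receptor, stood at 4.57 and 4.29 FPKM against 50.3, 48.1, 22.7 and 32.1, EGFR at 15.8 and 17.0 against 54.2, 70.5, 24.9 and 35.0, and FGFR4 at 1.63 and 1.71 against 22.8, 9.36, 13.2 and 13.1.

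Germ line genes were on one side. Of 38 cancer-testis genes 8 passed the filter, all higher in control 2 and 3, and 5 of them on-off. Because a gene passes here only through the side where it is high, that count supports nothing by itself. MAGEA6 stood at 51.9 and 49.2 FPKM against at most 0.129, MAGEA12 at 20.5 and 19.97 and was listed at 0 in the other 4, MAGEA3 at 14.1 and 12.4 against at most 0.0739, and PRAME, a melanoma antigen of the germ line, at 23.2 and 24.1 against at most 0.189. The summed level of all 38 was 132 to 136 FPKM in control 2 and 3, 0.232 to 0.714 in the other 4 and 119 to 172 in BxPC-3. The sum of control 2 and 3 lay within that of BxPC-3, but the genes differed: MAGEA1 stood at 0.546 and 0.734 FPKM against 24.4 to 34.3 in BxPC-3. MAGEA3 and MAGEA6, and MAGEA2 and MAGEA2B, are near-identical copies whose split of reads is uncertain.

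Imprinted genes, of which 1 parental copy is silenced, and HLA genes also differed. SNRPN, expressed from the paternal copy, stood at 10.7 and 9.69 FPKM against at most 0.0984. PHLDA2, expressed from the maternal copy, stood at 646 and 665 FPKM against 153, 50.5, 134 and 116. MEST was lower (0.332 and 0.357 FPKM against 4.81 to 7.43), as was GRB10, and 5 of the 9 that passed were neither. Of 21 HLA genes 11 passed, 6 were lower, 0 higher and 5 neither (median -1.05). HLA-B stood at 6.13 and 5.47 FPKM against 24.2, 83.8, 74.9 and 70.6. HLA genes are alike in sequence and their single values are uncertain.

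Neighbouring genes lay on the same side over long stretches. A run was counted where at least 5 protein-coding genes in a row, among those that passed the filter, all lay on the same side by 2-fold with no overlap. The background for a single protein-coding gene was 1616 (14.7%) higher and 1181 (10.8%) lower. There were 34 runs with 223 genes higher in control 2 and 3 and 11 runs with 69 genes lower. Of the higher runs 13, with 89 genes, lay on chromosome 6, 4 each on chromosomes X and 19 (the fourth of chromosome 19 outside the stretch described further on), and 3 on chromosome 1. Of the lower runs 5, with 36 genes, lay on chromosome 8. On-off genes were a small part of them, with 8 of 39 and 4 of 40 in a run. The AKR1C, keratin, HOXC and MAGEA runs hold tandem members of gene families. The stretches described next were drawn from a first to a last run. The genes of those runs are higher or lower by definition, so a larger share inside a stretch than outside follows in part from its borders.

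Over a stretch of the long arm of chromosome 6 most genes were higher. From the first to the last of its runs (70667776 to 170584692, 99.9 Mb) 134 of 216 genes (62.0%) were higher and 8 lower, with a median log2 difference of 1.24. On the rest of the chromosome 15.9% of 347 genes were higher, with a median of 0.24. Against control 1 alone the median of the stretch was 1.18. Against BxPC-3, control 2 and 3 had a median of 0.39 there and the other 4 one of -0.77, beside 0.12 and -0.02 over all protein-coding genes. On the rest of chromosome 6 these medians were 0.30 and 0.02. Relative to BxPC-3 it was thus mainly the other 4 that differed between the stretch and the rest. Control 2 and 3 had a similar median in both. EEF1A1, the translation elongation factor, lies in this stretch and stood at 2497 and 2562 FPKM against 598, 1339, 1102 and 1215. Its longest run, from COQ3 to QRSL1, held 12 genes (99369400 to 106668417, median 1.56), and the run nearest the end of the arm, from AFDN to PDCD2, held 9 (167826922 to 170584692, median 1.86).

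On chromosome 8 a large part of the short arm was lower. From 22048995 to 42541926 (20.5 Mb), 57 of 91 genes (62.6%) were lower, with a median of -1.20, against 16.9% and -0.16 on the rest of the chromosome. The longest of its runs, of 13 genes from DMTN to C8orf58 (22048995 to 22604150), had a median of -1.67 and holds BMP1, a procollagen protease, and SORBS3, an adhesion adaptor. A second run (22987417 to 23296279, 6 genes) holds the TRAIL receptors TNFRSF10A, TNFRSF10B and TNFRSF10D. TNFRSF10B stood at 9.53 and 8.85 FPKM against 47.3, 101, 46.3 and 47.7. Another, with PLAT, IKBKB and POLB, lies at 42152946 to 42541926. Relative to BxPC-3 the median of the stretch was -0.73 for control 2 and 3 and 0.50 for the other 4. On the rest of chromosome 8 it was 0.34 and 0.48. Here it was thus control 2 and 3 that differed between the stretch and the rest. The other 4 had a similar median in both.

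**Figure D4:**
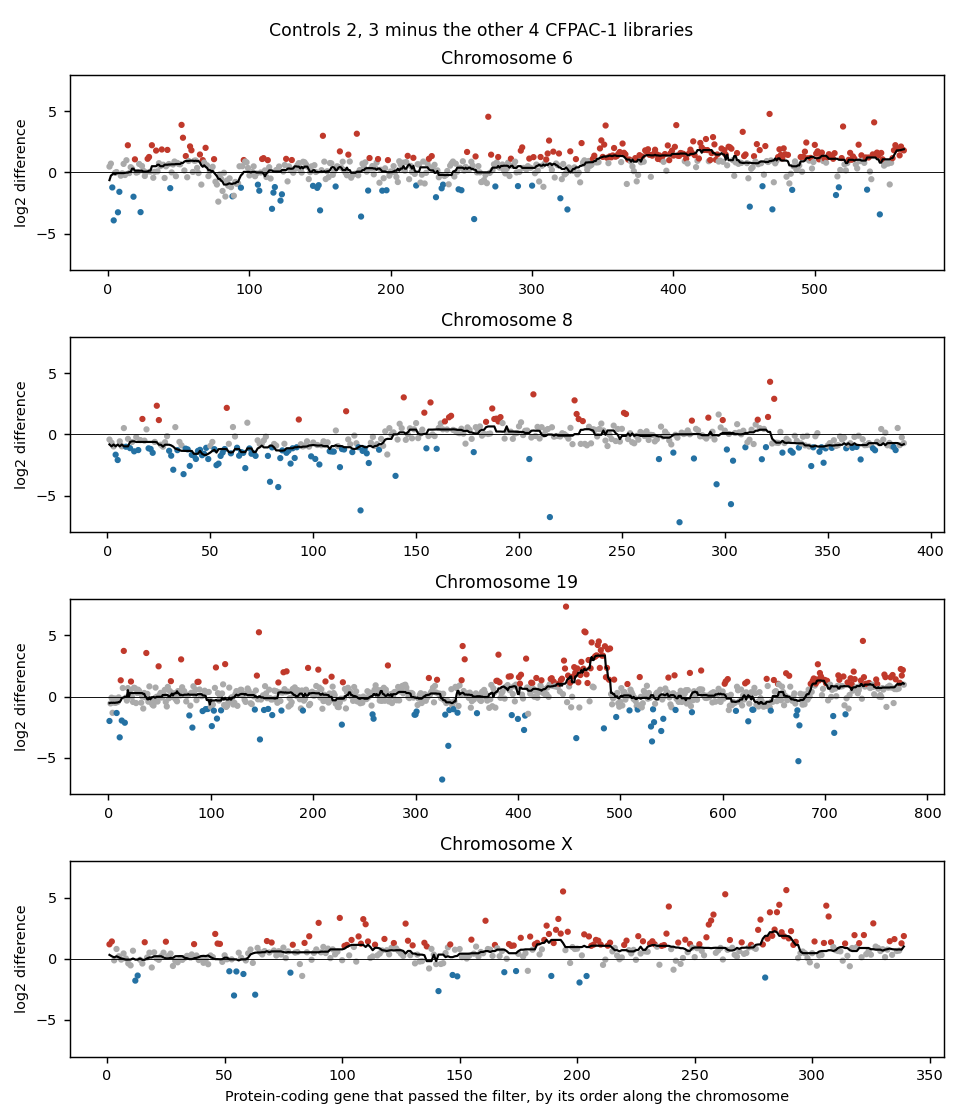
Log2 difference, control 2 and 3 minus the other 4 libraries labelled CFPAC-1, of each protein-coding gene that passed the filter on chromosomes 6, 8, 19 and X, in the order of the genes along the chromosome. Red and blue points are genes at least 2-fold higher or lower with no overlap, and the line is a running median over neighbouring genes: it stays above 0 over much of the later part of chromosome 6 and below 0 in the earlier part of chromosome 8, with a narrow peak on chromosome 19.

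Chromosome X had 33.3% of 339 genes higher and 5.01% lower. From its first to its last run (49589529 to 153075018, 103.5 Mb) 81 of 187 genes (43.3%) were higher, with a median of 0.85, against 21.1% and 0.44 on the rest of the chromosome. Its longest run was the MAGEA and CSAG cluster, 13 genes from GABRA3 to PNMA6A (152166234 to 153075018, median 2.16), which also holds genes that are not of the germ line, among them CETN2, a centriole protein, and NSDHL, an enzyme of cholesterol synthesis. On chromosome 18 the last 12.7 Mb between runs (67506582 to 80247546) had 15 of 21 genes higher (71.4%, median 1.46), and TXNL4A, a splicing factor there, stood at 33.5 and 33.3 FPKM against 5.46, 4.25, 5.44 and 5.31. On chromosome 1 a run of 8 genes (83865028 to 84997113) holds PRKACB, a catalytic subunit of protein kinase A, at 15 and 14.2 FPKM against 1.54, 1.45, 0.748 and 0.743.

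A short stretch of large differences lay on the long arm of chromosome 19. From SIRT2 to AKT2 (38878555 to 40285536, 1.4 Mb), 26 of 30 genes (86.7%) were higher, with a median log2 difference of 2.91, and 2.91 against control 1 alone. The 3 runs that set these borders hold 9, 9 and 6 of the genes. On the rest of the chromosome the share was 15.1% and the median 0.18. Gain of this segment, which holds the kinase genes PAK4 and AKT2 and the elongation factor gene PAF1, has been described in some pancreatic cancers. PAF1, of the elongation complex of that name, stood at 351 and 336 FPKM against 14.2, 15.4, 16.0 and 14.3. PSMC4, a proteasome ATPase, stood at 705 and 700 FPKM against 51.5, 43.7, 34.1 and 31.9. AKT2, the kinase downstream of PI3K, stood at 80.2 and 80.003 FPKM against 4.63, 4.48, 3.99 and 4.19. Each of these was high in both libraries alike, with no overlap, and the other 4 were close to each other whether fed or starved.

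Housekeeping genes of the segment were among those higher. RPS16, a ribosomal protein, stood at 2023 and 2077 FPKM against 137, 270, 226 and 204, FBL, the nucleolar methyltransferase fibrillarin, at 997 and 1008 against 109, 82.7, 104 and 96.0, and TIMM50, of the mitochondrial import machinery, at 185 and 183 against 11.4, 7.16, 8.72 and 9.00. Over a list of 44 genes of the segment and its flanks 35 passed, 27 were higher, 3 lower and 5 neither, and their summed FPKM was 4904 to 4959 in control 2 and 3, 674 to 803 in the other 4 and 731 to 1087 in BxPC-3. Of the 30 genes of the stretch, 26 were at least 2-fold above BxPC-3 in control 2 and 3 and 1 in the other 4. In the other 4 libraries 5 of the 30 were at least 2-fold below BxPC-3 (NFKBIB, MRPS12, FBXO17, FBXO27 and ACP7), and in control 2 and 3 it was 0.

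The stretch had an edge. AKT2 was the last gene of its run, and its next neighbour on the table, C19orf47, had a log2 difference of 0.0030 between control 2 and 3 and BxPC-3, as against 3.16 for AKT2. Inside the segment GMFG was not higher and FCGBP, a mucus protein, was lower (0.238 and 0.243 FPKM against 5.46 to 7.05). Before SIRT2, from DPF1 on, there was no such edge. DPF1 (log2 difference 2.94), SPINT2 (2.30), PPP1R14A (7.35), YIF1B, PSMD8, RYR1, EIF3K (2.41), ACTN4, ECH1 (2.30) and HNRNPL were higher. C19orf33, KCNK6, SPRED3, FAM98C and RINL among them were not 2-fold apart, and LGALS4 was lower (-3.40). Expression does not give the borders of a copy number change.

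**Figure D5:**
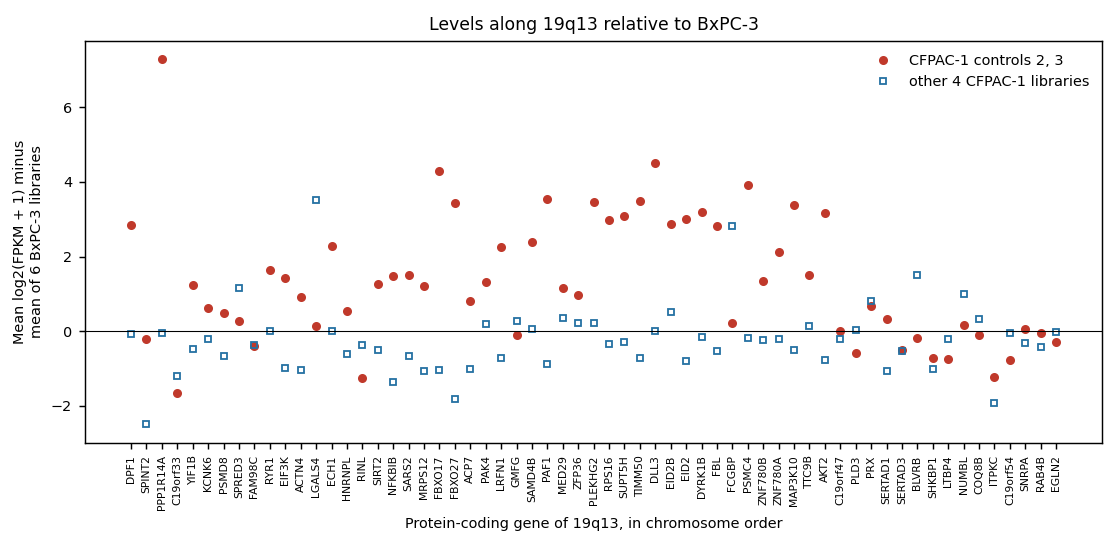
Mean log2(FPKM + 1) minus the mean of the 6 BxPC-3 libraries for the protein-coding genes around the chromosome 19 stretch, in chromosome order (x axis), for CFPAC-1 control 2 and 3 (filled circles) and the other 4 libraries of that label (open squares). From SIRT2 to AKT2 most filled circles lie 1 to 4 log2 units above 0 and most open squares near 0, and past AKT2 the filled circles no longer stand above 0 as a group.

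A run on chromosome 7 showed the mirror image, with the other 4 libraries standing out. TRRAP, SMURF1, KPNA7, AC004922.1, ARPC1A and ARPC1B (98877933 to 99394816) were all lower in control 2 and 3, with a median of -2.96. AC004922.1 overlaps ARPC1A and ARPC1B, may share reads with both and is uncertain. ARPC1A, a subunit of the Arp2/3 complex that nucleates actin, stood at 67.8 and 71.2 FPKM against 916, 690, 750 and 743, and ARPC1B at 54 and 48.1 against 712, 478, 680 and 516. SMURF1, a ubiquitin ligase of TGF-beta receptors, stood at 12.8 and 12.9 FPKM against 88.0, 112, 53.6 and 61.4. Relative to BxPC-3, the difference for ARPC1A was -0.47 in control 2 and 3 and 2.99 in the other 4, and for SMURF1 -0.15 and 2.32. The next gene, PDAP1, stood at 55.1 and 58.3 FPKM against 41.5 to 53.4 and was not apart, so this run too ended between neighbours. BRI3, before the run, was also lower (17.1 and 17.1 FPKM against 79.7 to 119), with BAIAP2L1 between them not apart. Before BRI3, LMTK2 (log2 difference -1.55), BHLHA15 (-2.90) and TECPR1 (-1.46) were lower too.

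Several genes that are often altered in pancreatic cancer differed across the split. MAP2K4, a kinase upstream of JNK that is deleted in some tumours, stood at 4.56 and 3.95 FPKM against 0, 0, 0.0343 and 0.108. ARID1A, a chromatin remodeller, stood at 10.4 and 8.37 FPKM against 0.950 to 2.67. Of 20 such genes 19 passed, 7 were higher, 3 lower (CDKN2A, CDKN2B and GATA6) and 9 neither.

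In the region of CDKN2A on chromosome 9, CDKN2B, the neighbouring inhibitor, was listed at 0 in both and stood at 3.53, 12.0, 13.3 and 14.6 FPKM in the other 4. The antisense transcript CDKN2B-AS1 was listed at 0 in both as well, but reached only 0.0456 to 0.0846 FPKM in the other 4. MTAP, the next gene, stood at 0.510 and 0.559 FPKM in controls 2 and 3, at 0.690 to 1.06 in the other 4 and at most at 0.00370 in BxPC-3. KLHL9, farther on, stood at 3.79 and 3.75 FPKM against 1.96 to 3.52, and was listed at 0 in BxPC-3. So among the 5 genes named here, those listed at 0 in control 2 and 3 were CDKN2A, CDKN2B and CDKN2B-AS1, while in BxPC-3 MTAP and KLHL9 were at or near 0 too. Other genes of the region were at 0 as well. Of 17 genes in the list of this region, 9 passed the filter, 1 was higher, 2 lower and 6 neither. In both control 2 and 3, 7 of the 17 were listed at 0, and in all of the other 4 it was 3. SMAD4, which is described as lost in both BxPC-3 and CFPAC-1, stood at 1.48 and 1.82 FPKM in controls 2 and 3, at 1.63, 3.24, 1.06 and 1.53 in the other 4 and was listed at 0 in all 6 BxPC-3 libraries. SMAD4 did not separate the sides, and an mRNA level does not show whether the protein is made.

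Since 3 of the other 4 libraries were starved and control 2 and 3 were fed, lists that follow growth are given beside the split. Of 26 hypoxia and glycolysis genes all 26 passed, 18 were lower, 1 higher and 7 neither (median -1.36), with summed levels of 3342 to 3503 FPKM in control 2 and 3 and 4586 to 9332 in the other 4. SLC2A1, the glucose transporter, stood at 8.25 and 8.50 FPKM against 77.2, 204, 182 and 170, and HK2, hexokinase, at 11.6 and 11.9 against 19.2, 89.6, 17.8 and 21.5. NDRG1, a hypoxia-induced gene, stood at 3.14 and 3.10 FPKM against 44.8, 401, 350 and 321. In SLC2A1 and NDRG1 the fed control 1 was below the 3 starved libraries and above control 2 and 3. The gene of this list that was higher was BNIP3, a mitophagy receptor and hypoxia target, at 9.90 and 10.3 FPKM against 0.0218 to 0.0694.

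Cell cycle genes are given with the feeding label of each library. Of 24 mitosis genes that passed 9 were higher, 0 lower and 15 neither, with sums of 604 to 619 FPKM in control 2 and 3 and 147 to 559 in the other 4. The proliferation gene MKI67 had 12.0 and 13.9 FPKM in control 2 and 3, 10.7 in control 1 and 3.49, 2.63 and 3.41 in the induced libraries. Of 22 genes of DNA replication 1 was higher (TYMS) and 21 neither, with PCNA, the replication clamp, at 99.4 and 97.8 FPKM against 176, 57.5, 83.6 and 81.3. Of 18 starvation and quiescence genes that passed 1 was higher (CITED2), 6 lower and 11 neither. MKI67 was lower in the 3 starved libraries than in the 3 fed ones, and PCNA was highest in control 1. How much of the other differences goes with serum was not tested.

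Genes of the primary cilium itself were mostly not 2-fold apart between the sides. Of 33 core cilium genes 29 passed, 4 were higher, 2 lower and 23 neither (median 0.33). IFT52 and IFT57, subunits of the intraflagellar transport complex, stood at 14.2 and 14.1 FPKM against 4.82 to 6.44 and at 6.55 and 6.52 against 1.87 to 3.15. ARL3, a small GTPase that unloads cargo in the cilium, stood at 14.9 and 15.1 FPKM against 2.91 to 4.43, and KIF3B, a subunit of its motor, at 20.8 and 20.6 against 6.04 to 11.0. IFT46 was lower (0.893 and 0.714 FPKM against 4.17 to 5.18), as was GLI2, an effector of Hedgehog signals (0.357 and 0.423 FPKM against 1.80 to 4.40).

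Which cells the libraries labelled control 2 and 3 came from was not tested. The series text names CAPAN-1 and PANC-1 beside CFPAC-1 and BxPC-3 for the counting of cilia, and libraries of those lines were not analysed here. Of the 3 libraries labelled CFPAC-1 control, 1 lay on the side of the 3 induced libraries.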

How the data were processed

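RNA-seq values were read for 12 libraries in 4 groups of 3. Per the file headers, the authors deposited 1 table of log2 values, of FPKM with 1 added, for 60564 genes. FastQC, StringTie and GRCh38 are named in the submitters' processing notes, while aligner, annotation and strandedness are not given in the sources used. FPKM was obtained as 2 to the power of the value, minus 1. A library's FPKM depend on its other transcripts, and without read counts the depth and its precision are unknown. Gene coordinates and types came from GENCODE 29, in which 58457 identifiers (96.5%) were found.

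The split of the 6 libraries labelled CFPAC-1 was chosen from these values, so no test was run: counts, levels and log2 differences are descriptions. The members and the gene lists were chosen with earlier results of these data known. Genes needed 1 FPKM in at least 2 of the 6 libraries. On-off genes, 4-fold genes and runs of neighbouring protein-coding genes were counted as defined in the report. Named genes were, in each direction, the 15 on-off genes of highest level, the 15 of largest difference, the genes of the 6 longest runs and members of 37 lists, 1 of which, with some list members, is not reported here. The remaining on-off genes and neighbours named were chosen after their values were seen. Promoter windows came from RefSeq (GRCh38.p14). The scripts recovered all items planted in simulated data. These were planted beyond the levels used, so this checks that the rules are applied and not how they do at the noise of these data. Python 3.11.15 with numpy 2.4.6, pandas 2.3.3 and matplotlib 3.10.9 was used. Other levels, filters, pseudocounts, scalings and left-out libraries were tried as alternatives.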

Additional observations from a re-analysis of the deposited data

How the results depend on the processing

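Of 90 alternatives, 67 left a count or value near the reported one and 23 moved it. With 5 and 0.5 FPKM as the on and off levels there were 116 genes on and 95 off in control 2 and 3, and with 20 and 0.1 FPKM 10 and 22. A pseudocount of 0.1 gave 1007 higher and 1012 lower genes at 4-fold, 53 higher runs and a mean correlation of 0.6546 with the other 4 libraries, against 0.7685 as reported. A filter at 5 FPKM gave 21 higher and 7 lower runs and a correlation of 0.6428, and no filter gave 8, 6 and 0.8936. Runs of at least 4 genes numbered 21 lower, runs of at least 6 genes 22 higher and 7 lower, and runs at a 1.5-fold step 76 and 23. With control 1 alone on the other side, an alternative chosen after seeing the data, there were 67 on and 71 off genes, 6 lower runs and a correlation of 0.7800. Leaving out each library in turn gave 40 to 41 on and 40 to 54 off genes, 422 to 434 higher and 426 to 473 lower genes at 4-fold, 31 to 36 higher and 10 to 12 lower runs, and correlations of 0.7647 to 0.7730. The median log2 difference of all genes was 0.1063 as deposited, 0.1451 with equal sums without mitochondrial genes and -0.0003 by the median of ratios, so differences of the size of 0.1 depend on scaling. The balance of the directions was not stable: against 422 higher and 444 lower genes at 4-fold as reported there were 442 and 426 with equal sums, 372 and 477 by the median of ratios, 434 and 432 without induced 2, 434 and 426 without induced 3, and 488 and 446 with control 1 alone. Higher genes were 55.8% of those 2-fold apart as deposited and 48.4% by the median of ratios. Depth limits every value near 0, since no count stands behind it. No paired analysis was possible because the results come from no test.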

Other observations

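Control 2 and control 3 were alike but not the same, and 113 protein-coding genes lay at least 2-fold apart between them. DAG1, the dystroglycan that anchors cells to the basement membrane, stood at 51.0 FPKM in control 2 and 2.30 in control 3, a log2 difference of 3.98. RAB5B, of early endosomes, stood at 17.4 and 1.92 FPKM, and CBL, a ubiquitin ligase of receptor kinases, at 14.7 and 2.17. MYC, the growth-linked transcription factor, stood at 27.0 and 3.59 FPKM, and the tight junction gene CLDN4 at 5.53 and 0.162. In the other direction ZNF664 stood at 1.29 FPKM in control 2 and 10.2 in control 3, SRP9, of the signal recognition particle, at 21.5 and 78.4, and GRB2, an adaptor of receptor kinases, at 8.89 and 32.1. These are single libraries with no replicate of the difference. Induced 2 and induced 3 also had 113 such genes, and BxPC-3 control 2 and 3 had 117.

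Genes just outside the on-off levels included FBXO17, at 43.9 FPKM in both and up to 0.277 on the other side, FHL1, kept out by 0.295 FPKM, and BNIP3, kept out by its 9.90 FPKM in control 2. On the opposite side they included IGFBP1 (0.288 FPKM in control 3), TRIP6 (0.231 FPKM in control 3) and AKR1B10 (8.92 FPKM in induced 1). PLOD2, a collagen hydroxylase, lay just inside with 10.1 FPKM as its lower value.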
